A study of Mus musculus with 10 samples.

Results

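The genes described here encode 38 components of the pathway that runs from phosphoinositide 3-kinase (PI3K) through the kinase AKT to the growth kinase mTOR, out of 55573 Ensembl genes in the count table. They were chosen by name: rows were taken where the Ensembl mouse identifier maps to the gene symbol in the GRCm38 annotation, and each of the 38 symbols mapped to 1 row. By textbook role 24 were classed as activators and 14 as brakes. RNA was sequenced from bone marrow B cells of mice carrying the PAX5-ELN fusion, a leukemia-associated fusion of the B-lineage regulator PAX5 with elastin, and a GFP-tagged histone H2B. The 5 GFP high libraries are labelled quiescent and the 5 GFP low libraries proliferating. The genotype, the doxycycline treatment and the time of 35 days are the same for all 10 libraries, so no library lacks the fusion or the drug. The age and sex of the animals, the promoters of the transgenes, the surface markers of the sort and any pooling of animals could not be read from the sources used here, and p-values therefore measure the spread between these libraries, which may be technical.

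PI3K phosphorylates an inositol lipid of the inner plasma membrane, and the product recruits AKT, which is then activated by the kinases PDK1 and mTOR complex 2. Lipid phosphatases remove that signal. Active AKT restrains the TSC complex and thereby releases the GTPase RHEB, which switches on mTOR complex 1 on the lysosome, where RAG GTPases bring the complex when amino acids are plentiful. In B-cell progenitors this pathway carries signals of the pre-B-cell receptor and of cytokine receptors, and AKT keeps FOXO1, a driver of recombinase and IL-7 receptor genes, out of the nucleus.

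Total counts were 11347097 to 13838769 per GFP high library and 10640894 to 14858520 per GFP low library. Levels are given as CPM, read counts relative to the TMM-scaled library size. A positive log2 fold change means a higher level in GFP high, and ± after it is the standard error (SE). Adjusted p-values come from edgeR's quasi-likelihood test with Benjamini-Hochberg adjustment over 12772 tested genes, and "rose" or "fell" means an adjusted p under 0.05. All 14 B-cell progenitor markers examined were expressed (summed level 17240 to 19900 CPM in GFP high, beside 14120 to 15760 CPM in GFP low). Of these 5 rose and 9 did not pass, where 12.0% of all tested genes rose. With the replicate number as a block 11 were higher and 1 lower, beside 20.7% and 21.0% of all tested genes. The 6 cycling genes examined fell, for example Top2a from 967 ± 100.3 to 466 ± 79.2 CPM (SD, n = 5 each). In sorted bulk samples, fewer cells of a type and less RNA per cell cannot be told apart.

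Promoter sequences are shown for components of the lysosomal branch that share an E box, the letters CACGTG bound by TFEB-family and MYC-family factors, and for Rictor, a component of mTOR complex 2 that rose and holds an E2F match. The E box reads the same on both strands. It was found in the RefSeq promoter window (GRCm38.p6, 250 bases before to 50 after the start site) of 4 of 36 members with a window, namely Rheb, Rragc, Lamtor1 and Pik3ap1, and in 8.09% of 27025 genes with a window. A FOXO match (GTAAACA, either strand) was found for Akt1 and Pik3cg, 2 of 36 against 4.05% of all genes. An E2F match (TTCCCGCC, either strand) was found for Rictor, Rraga and Depdc5, 3 of 36 against 2.52%. Each stretch below is 100 bases, 5′ to 3′ on the gene's strand, with the matched letters in capitals. Start sites are those of the RefSeq windows. The Rheb stretch lies before its RefSeq start site but inside the wider gene bounds given for Rheb further below (24802823 to 24842624).
Rheb, chr5:24842405-24842504, minus strand, match starting 96 bases before the start site: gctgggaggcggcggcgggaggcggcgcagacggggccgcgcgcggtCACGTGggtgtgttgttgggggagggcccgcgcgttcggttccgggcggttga
Rragc, chr4:123917274-123917373, plus strand, 112 bases before the start site: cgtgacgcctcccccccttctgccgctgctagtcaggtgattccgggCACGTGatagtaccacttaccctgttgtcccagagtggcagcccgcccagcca
Lamtor1, chr7:101905722-101905821, plus strand, 68 bases before the start site: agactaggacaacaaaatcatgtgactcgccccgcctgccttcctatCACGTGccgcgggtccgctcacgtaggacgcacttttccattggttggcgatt
Rictor, chr15:6708273-6708372, plus strand, E2F match 61 bases before the start site: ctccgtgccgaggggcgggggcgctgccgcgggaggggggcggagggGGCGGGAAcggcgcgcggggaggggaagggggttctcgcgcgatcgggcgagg
The genes that share the E box did not share a direction: Rheb fell, Lamtor1 did not pass the test, and Rragc and Pik3ap1 did not pass over all 10 libraries without the replicate block but were higher with it.

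Of the 38 members, 37 had enough counts to be tested, and 8 rose, 3 fell and 26 did not pass. The called share was 29.7% of tested members, beside 27.5% of all tested genes (12.0% higher and 15.4% lower), so the pathway as a whole was called about as often as other genes. The members that rose were Pik3cd, Pik3r5, Inpp5d, Inpp4a, Phlpp1, Mtor, Rictor and Nprl3, and those that fell were Pik3r3, Rheb and Rragd. The groups did not overlap for 6 members (Inpp5d, Phlpp1, Mtor and Nprl3 higher, Pik3r3 and Rheb lower), beside 20.5% of all tested genes (7.92% higher and 12.6% lower). With libraries of equal number taken as pairs, 13 tested members were higher in GFP high in 5 of 5 pairs and 7 were lower. The same held for 22.9% and 23.1% of all tested genes. Changes were small: apart from Inpp4a and Pik3r3, whose levels were low, every called member differed less than 2-fold. With the replicate number as a block, 13 members were higher and 5 lower, beside 20.7% and 21.0% of all tested genes (41.8% either way). Without both libraries numbered 3 the counts were 5 higher and 0 lower by edgeR, beside 7.23% and 10.7% of genes (17.9% either way), and 3 members were lower at an unadjusted p under 0.05.

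**Figure D1:**
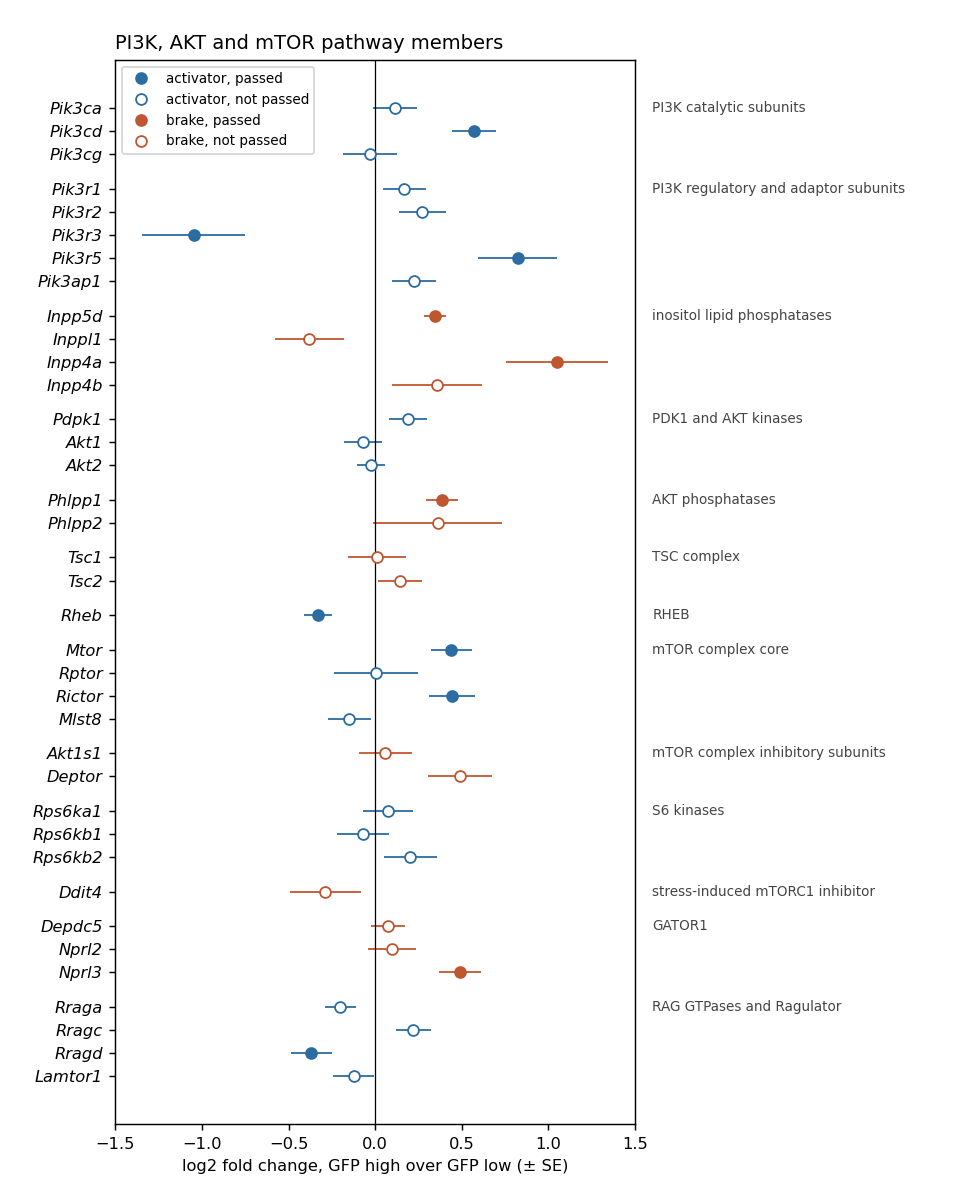
Log2 fold change of each tested member, GFP high over GFP low, with its SE (horizontal bars), grouped by role; blue marks activators, orange marks brakes, and filled points passed the test. Most points lie within 0.5 of 0 on the log2 scale, with Inpp4a at 1.05 and Pik3r3 at -1.05 the farthest out.

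Activators moved in both directions, and the brakes that passed without the replicate block were higher. Among 23 tested activators 4 rose and 3 fell, with a median log2 fold change of 0.07. Among 14 tested brakes 4 rose and 10 did not pass. In that fit none of the brakes was lower at an adjusted or an unadjusted p under 0.05, and DESeq2 called 5 higher and 0 lower, where it called 27.1% of all its tested genes (12.8% higher and 14.3% lower). With the replicate block 5 brakes were higher and 2, Inppl1 (adjusted p = 0.00916) and Ddit4 (adjusted p = 0.0192), were lower, beside 8 activators higher and 3 lower. Without both libraries numbered 3 the brakes had 2 higher and 0 lower by edgeR, with 5 higher and 0 lower at an unadjusted p under 0.05, and the activators 3 higher and 0 lower, with 5 higher and 3 lower unadjusted. The brakes' median was 0.25, and 12 of the 14 had a value above 0, beside 13 of the 23 activators and 52.9% of all tested genes. The median of all tested genes was 0.03. The class of a PI3K regulatory subunit is debatable, since such a subunit both stabilises and restrains the catalytic one, and without the regulatory and adaptor subunits the activators' median was -0.01.

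The mean level of all tested brakes, as log2(CPM + 1) centred per gene, was 0.11, 0.12, 0.20, 0.04 and 0.05 for GFP high numbers 1 to 5. For GFP low it was 0.04, -0.21, -0.03, -0.18 and -0.13. It was higher in GFP high in each of the 5 numbered pairs, and GFP high library 4 lay just below GFP low library 1. The same mean over activators was -0.05, 0.05, -0.02, 0.13 and 0.06 for GFP high, beside -0.05, -0.13, -0.03, 0.02 and 0.03 for GFP low. The activator mean was also higher in GFP high in each numbered pair but number 1, where it was level. Its ranges in the groups overlapped widely, and no test was run on either mean because the members were chosen with earlier results of these data known.

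**Figure D2:**
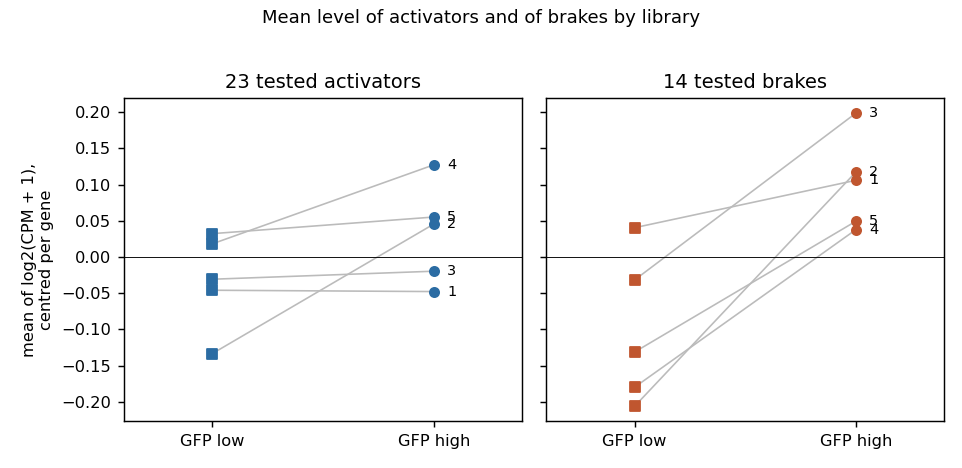
Mean of log2(CPM + 1), centred per gene, over the tested activators (left) and brakes (right) in each library; lines join libraries of equal replicate number, which is printed beside the GFP high point. The brake lines all slope upward from GFP low to GFP high. The activator lines also slope upward, except for library pair 1, which is level at -0.05.

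The catalytic subunit that rose was Pik3cd, which encodes p110 delta, the PI3K isoform typical of leukocytes (ENSMUSG00000039936, mm10 chromosome 4, 149649168 to 149702571). It had 457, 605, 629, 630 and 654 CPM in GFP high libraries 1 to 5, beside 344, 379, 344, 418 and 517 CPM in GFP low libraries 1 to 5. The groups overlapped only through GFP high library 1, which lay below GFP low library 5, and the gene was higher in GFP high in 5 of 5 pairs. This was a log2 fold change of 0.57 ± 0.13 (SE, adjusted p = 0.00565). Pik3ca, the broadly expressed p110 alpha, had 80.5 to 107 CPM in GFP high, beside 61.8 to 103.5 CPM in GFP low (0.11 ± 0.13, adjusted p = 0.548). Pik3cg, the isoform driven by G protein-coupled receptors, had 104 to 154 CPM in GFP high, beside 90.2 to 158 CPM in GFP low (-0.03 ± 0.16, adjusted p = 0.906). Pik3cb was the member with too few counts to test, with 0 to 26 reads per library.

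Scaled to exon length, Pik3cd made up most of the catalytic transcripts in every library. Its share of summed CPM per kilobase was 78.8% ± 2.12 in GFP high (76.7% to 81.9%) and 71.8% ± 2.66 in GFP low (68.5% to 74.4%, SD, n = 5 each), and the groups did not overlap. The share of Pik3cg was 12.7% ± 1.70 in GFP high against 17.4% ± 1.98 in GFP low. Scaled to coding length in place of all exons, Pik3cd's share was 73.6% and 65.6%. These shares describe transcripts and say nothing of protein.

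Regulatory subunits and adaptors diverged. Pik3r3, which encodes the p55 gamma regulatory subunit, had 4.96, 4.97, 3.72, 3.82 and 1.65 CPM in GFP high libraries 1 to 5, beside 8.39, 10.5, 8.14, 6.92 and 5.62 CPM in GFP low. Every GFP high library lay below every GFP low library. On the log2 scale the difference was -1.05 ± 0.30 (adjusted p = 0.0203), and it did not pass without GFP low library 2 (-0.92, adjusted p = 0.0596), without both libraries numbered 3 (-1.02, adjusted p = 0.0807) or for numbers 4 and 5 by themselves (-1.20, adjusted p = 0.0941). Pik3r3 was a low gene, with 19 to 149 reads per library, and 24.3% of its exon length is shared with the overlapping gene Gm49337, which was listed at 0 counts. The rule for assigning reads there is not stated.

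Pik3r5, which encodes the p101 adaptor of p110 gamma (ENSMUSG00000020901, chromosome 11, 68432121 to 68497849), went the other way. It had 15.7, 23, 20.3, 20.9 and 24.6 CPM in GFP high, beside 11.5, 6.01, 13.3, 12.3 and 16.1 CPM in GFP low. Only GFP high library 1 fell inside the GFP low range, and the log2 fold change was 0.82 ± 0.23 (adjusted p = 0.0176). It did not pass without both libraries numbered 3 (0.87, adjusted p = 0.0524). Pik3r5 is also a gene of myeloid cells. Of 6 tested monocyte and macrophage markers, Csf1r (26.1 against 5.92 CPM) and Ly6c2 (2.89 against 1.29 CPM) were the 2 that passed, with a summed level of the 8-gene list of 121 to 171 CPM in GFP high, beside 84.2 to 124.5 CPM in GFP low. With the block 4 passed, adding Lyz2 (67.9 against 52.6 CPM, adjusted p = 0.00259) and Cd68 (4.50 against 2.21 CPM, adjusted p = 0.022). Mrc1 (17.7 against 13.45 CPM, adjusted p = 0.0515) and Itgam (22.7 against 24.0 CPM, adjusted p = 0.66) did not pass with the block. These markers were named after their values were seen. Of that list Adgre1 and Ccr2 had at most 22 reads and 10 reads in any library, and the part of other cells in the rise of Pik3r5 was not tested.

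The main class IA regulatory gene, Pik3r1, had 143, 112, 140, 126 and 97.8 CPM in GFP high libraries 1 to 5, beside 122, 112, 127, 98.2 and 91.3 CPM in GFP low. The groups overlapped and the log2 fold change of 0.17 ± 0.12 did not pass (adjusted p = 0.348). Pik3ap1 encodes BCAP, an adaptor that links the B-cell receptor to PI3K. It had 313, 334, 353, 413 and 372 CPM in GFP high, beside 241, 294, 261, 341 and 390 CPM in GFP low. It was higher in 4 of 5 pairs. Its difference of 0.22 ± 0.13 on the log2 scale (adjusted p = 0.217) passed once replicate number was a block (adjusted p = 0.0169) and for numbers 1 to 3 by themselves (0.35, adjusted p = 0.0316). For numbers 4 and 5 by themselves it was smaller and did not pass (0.09, adjusted p = 0.532). Nor did it pass without both libraries numbered 3 (0.17, adjusted p = 0.473). Pik3r2, another class IA regulatory subunit, had 36.4 to 48.7 CPM in GFP high, beside 26.7 to 41.6 CPM in GFP low (0.27 ± 0.14, adjusted p = 0.154, and 0.0414 with the block).

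**Figure D3:**
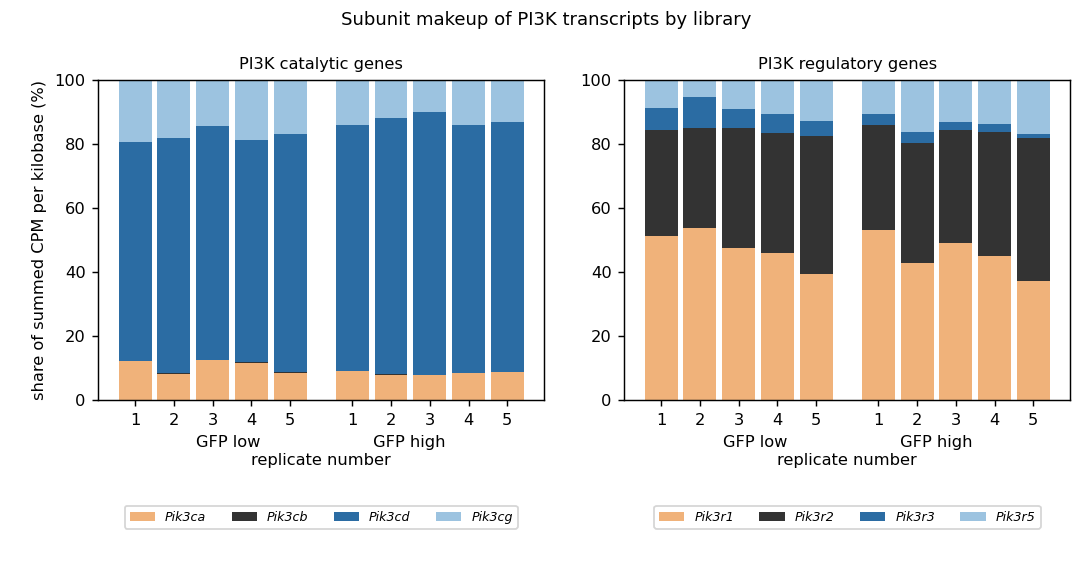
Share of each gene in the summed CPM per kilobase of exon, in percent, for PI3K catalytic genes (left) and regulatory genes (right), 1 bar per library. Pik3cd holds 68.5% to 81.9% of the catalytic sum, and the Pik3r3 band is thinner in GFP high (1.19% to 3.64%) than in GFP low (4.63% to 9.66%).

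Lipid phosphatases oppose PI3K directly. Inpp5d encodes SHIP1, the hematopoietic 5-phosphatase of the PI3K product (ENSMUSG00000026288, chromosome 1, 87620312 to 87720507). It had 841, 951, 883, 917 and 973 CPM in GFP high libraries 1 to 5, beside 684, 719, 679, 754 and 754 CPM in GFP low. No GFP high library reached down to the GFP low range. The log2 fold change of 0.35 ± 0.06 had the lowest adjusted p of all members (0.00188). Per kilobase of exon Inpp5d had the highest mean of the 38 members, with 120 ± 6.91 in GFP high and 94.5 ± 4.79 in GFP low, followed in GFP low by Akt1 with 84.1 ± 11. Per kilobase of coding sequence the order in GFP low turned, with Rheb at 341 and Akt1 at 239 above Inpp5d at 201. Inpp5d and Pik3cd thus rose together, and the log2 ratio of Pik3cd to Inpp5d per length was -0.35 ± 0.15 in GFP high and -0.58 ± 0.18 in GFP low, with overlapping groups.

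Inpp4a, a 4-phosphatase acting one step later, was far lower in level. It had 7.58, 9.59, 10.7, 7.24 and 4.76 CPM in GFP high, beside 6.02, 2.62, 3.29, 2.91 and 4.33 CPM in GFP low. GFP high library 5 lay inside the GFP low range. On the log2 scale the difference was 1.05 ± 0.29 (adjusted p = 0.0187), and the gene did not pass without both libraries numbered 3 (0.88, adjusted p = 0.101) nor for numbers 4 and 5 by themselves (0.71, adjusted p = 0.254). Its relative Inpp4b had 5.14 to 9.69 CPM in GFP high, beside 4.24 to 8.18 CPM in GFP low (0.36 ± 0.26, adjusted p = 0.339). Inppl1 encodes SHIP2, the broadly expressed relative of SHIP1. It had 16.8 to 32.1 CPM in GFP high, beside 24.4 to 43.9 CPM in GFP low, lower in GFP high in 5 of 5 pairs. Its exon overlap with 2 other genes, summed over both, equals 20.3% of its exon length. Its log2 fold change of -0.38 ± 0.20 did not pass (adjusted p = 0.1804) except with the replicate block (adjusted p = 0.00916). SHIP1 made up 96.9% ± 0.902 of the summed 5-phosphatase level per kilobase in GFP high and 95.05% ± 1.38 in GFP low.

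None of the kinases PDK1, AKT1 and AKT2 passed at the RNA level. Akt1 had 290, 299.9, 309, 373 and 370 CPM in GFP high libraries 1 to 5, beside 277, 342, 334, 379 and 392 CPM in GFP low. Libraries numbered 4 and 5 were the highest in both groups, and the log2 fold change was -0.07 ± 0.11 (adjusted p = 0.678). Akt2 had 72.7, 75.7, 79.0, 91.0 and 80.3 CPM in GFP high, beside 80.8, 88.3, 77.0, 80.4 and 78.5 CPM in GFP low (-0.02 ± 0.08, adjusted p = 0.864). Pdpk1, which encodes PDK1, had 86.5 to 124 CPM in GFP high, beside 78.0 to 97.01 CPM in GFP low (0.19 ± 0.11, adjusted p = 0.222). Akt1 held 87.7% ± 0.705 of the summed AKT1 and AKT2 level per kilobase in GFP high and 88.0% ± 1.63 in GFP low.

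The AKT phosphatase gene Phlpp1 rose (ENSMUSG00000044340, chromosome 1, 106171752 to 106394250). PHLPP1 removes an activating phosphate from AKT. The gene had 73.3, 77.4, 91.0, 80.9 and 89.8 CPM in GFP high, beside 54.9, 69.0, 60.7, 64.9 and 66.3 CPM in GFP low, without overlap. The difference on the log2 scale was 0.38 ± 0.09 (adjusted p = 0.0085), and 0.33 without both libraries numbered 3 (adjusted p = 0.0578). The log2 ratio of Akt1 to Phlpp1 per length was 2.71 ± 0.16 in GFP high and 3.16 ± 0.12 in GFP low, also without overlap. Phlpp2 was near the lower end of the tested range, with 16 to 42 reads per library (0.36 ± 0.37, adjusted p = 0.509).

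Between AKT and mTOR complex 1 stand the TSC complex and its target RHEB. Tsc1 had 27.6, 25.4, 40.1, 26.6 and 19.8 CPM in GFP high, beside 30.1, 28.1, 30.2, 22.3 and 27.96 CPM in GFP low. GFP high libraries 3 and 5 were the highest and lowest of all 10, and the log2 fold change was 0.01 ± 0.17 (adjusted p = 0.967). Tsc2, which encodes the subunit that inactivates RHEB, had 80.7, 85.7, 93.8, 95.2 and 107 CPM in GFP high, beside 67.7, 82.4, 71.3, 88.8 and 108 CPM in GFP low (0.14 ± 0.13, adjusted p = 0.435). Its groups overlapped over most of their range.

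Rheb, the GTPase that activates mTOR complex 1 and whose promoter holds the E box shown above, fell (ENSMUSG00000028945, chromosome 5, 24802823 to 24842624). It had 144, 161, 138, 148 and 158 CPM in GFP high libraries 1 to 5, beside 174, 195, 209, 183 and 180 CPM in GFP low. All GFP high libraries lay below all GFP low libraries. This was a log2 fold change of -0.33 ± 0.08 (adjusted p = 0.00848). It missed the threshold at -0.26 without both libraries numbered 3 (adjusted p = 0.0567) and likewise for numbers 4 and 5 by themselves (adjusted p = 0.054). Per length, the log2 ratio of Rheb to Tsc2 was 1.02 ± 0.16 in GFP high and 1.503 ± 0.31 in GFP low, lower in GFP high in 5 of 5 pairs but with overlapping groups.

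**Figure D4:**
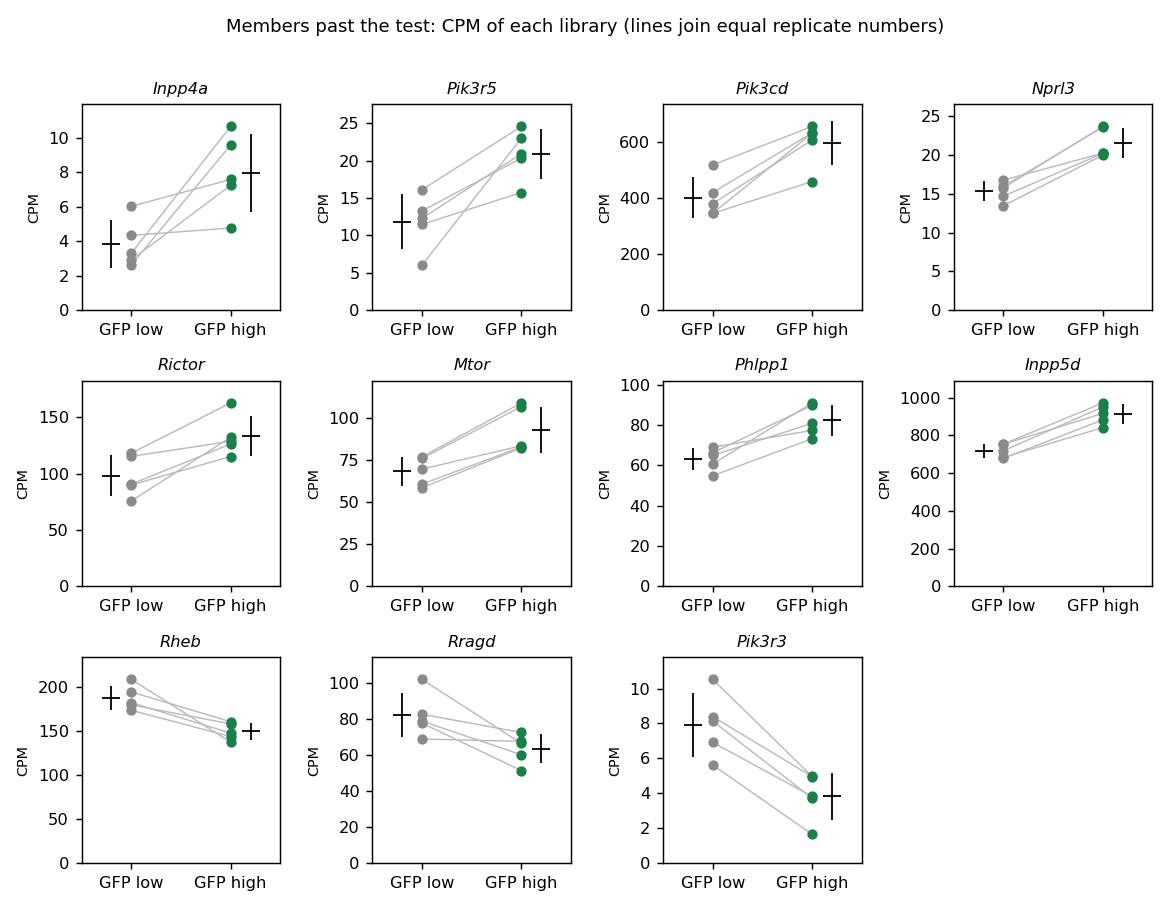
CPM of each library for the 11 members that passed the test, with axes from 0; lines join equal replicate numbers and the black marks give mean ± SD (n = 5). The lines of Pik3cd, Mtor, Inpp5d and the other members that rose slope upward in 5 of 5 pairs, and those of Rheb, Rragd and Pik3r3 slope downward in 5 of 5 pairs. Among all tested genes 22.9% were higher and 23.1% lower in 5 of 5 pairs.

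The kinase gene Mtor itself rose (ENSMUSG00000028991, chromosome 4, 148448611 to 148557683). It had 83.4, 82.7, 82.2, 109 and 107 CPM in GFP high libraries 1 to 5, beside 69.6, 60.7, 58.5, 76.8 and 75.9 CPM in GFP low. Every GFP high library exceeded every GFP low library, and within each group libraries 4 and 5 were highest. On the log2 scale the difference was 0.44 ± 0.12 (adjusted p = 0.0148). Rictor, which defines mTOR complex 2, the complex that phosphorylates AKT, rose by a like amount (ENSMUSG00000050310, chromosome 15, 6708379 to 6800401). It had 129, 132, 163, 126 and 115 CPM in GFP high, beside 115, 75.8, 118, 90.7 and 89.9 CPM in GFP low. Only GFP high library 5 reached into the GFP low range. The difference on the log2 scale was 0.44 ± 0.13 (adjusted p = 0.0257). The call was lost in 4 of 10 fits with a library left out, namely without GFP high library 3 (0.36, with an adjusted p of 0.0626) or without number 2 (0.37, adjusted p = 0.0623), 4 (0.43, adjusted p = 0.0543) or 5 (0.43, adjusted p = 0.0549) of GFP low. It was also lost for numbers 1 to 3 by themselves (0.48, adjusted p = 0.0666).

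Rptor, which defines mTOR complex 1, behaved differently from Rictor across libraries. It had 119, 103, 93.6, 198 and 171 CPM in GFP high libraries 1 to 5, beside 110, 106, 99.0, 196 and 172 CPM in GFP low. Its level followed the replicate number and not the GFP group: all libraries numbered 4 or 5 had 171 CPM or more, and all others 119 CPM or less. This was a log2 fold change of 0.00 ± 0.24 (adjusted p = 0.992), and with the replicate block it was 0.00 as well (adjusted p = 0.988). The log2 ratio of Rictor to Rptor per length was -0.21, 0.03, 0.47, -0.98 and -0.90 for GFP high, beside -0.26, -0.81, -0.08, -1.44 and -1.27 for GFP low. It was higher in GFP high in 5 of 5 pairs with overlapping groups. Mlst8, a subunit of both complexes, had 15.7 to 19.9 CPM in GFP high, beside 17.0 to 21.9 CPM in GFP low (-0.15 ± 0.12, adjusted p = 0.405), and 22.5% of its exon length overlaps another gene.

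**Figure D5:**
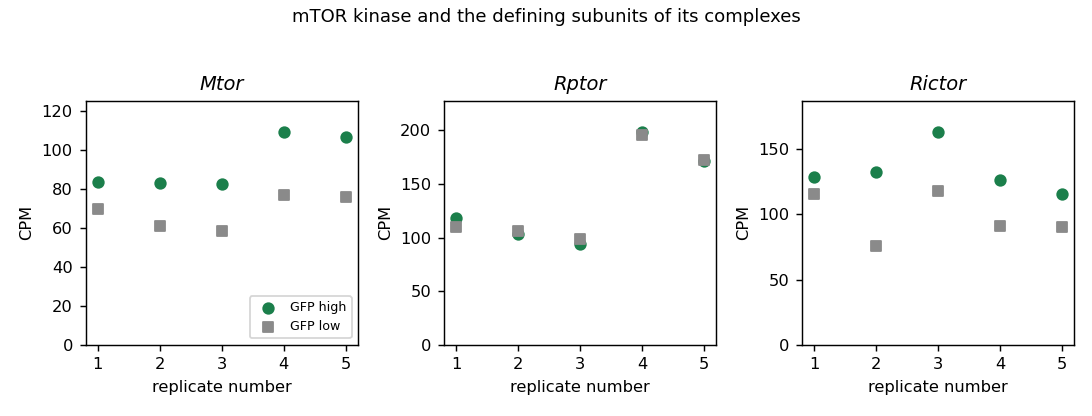
CPM of Mtor, Rptor and Rictor by replicate number in GFP high (green circles) and GFP low (grey squares) libraries, with axes from 0. Mtor and Rictor are higher in GFP high at each number, while the Rptor points of both groups nearly coincide and step up from at most 119 CPM at numbers 1 to 3 to at least 171 CPM at numbers 4 and 5.

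The inhibitory subunits of the mTOR complexes did not pass. Deptor, which binds and inhibits mTOR in both complexes, had 20.3, 20.8, 16.6, 20.6 and 23.1 CPM in GFP high, beside 18.7, 8.77, 15.5, 15.5 and 13.7 CPM in GFP low. It was higher in 5 of 5 pairs, with a log2 fold change of 0.49 ± 0.19 (adjusted p = 0.0685). It passed under the replicate block (0.52, adjusted p = 0.0279), by DESeq2 (0.50, adjusted p = 0.036) and when GFP low library 1 was left out (0.60, adjusted p = 0.0346). Akt1s1, which encodes PRAS40, an AKT substrate that holds back mTOR complex 1, had 21.1 to 32.5 CPM in GFP high, beside 22.6 to 28.9 CPM in GFP low (0.06 ± 0.15, adjusted p = 0.808).

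Among the S6 kinase genes no member passed without the block. Rps6kb1, the main S6 kinase downstream of mTOR complex 1, had 67.1 to 120 CPM in GFP high, beside 82.2 to 118 CPM in GFP low (-0.07 ± 0.15, adjusted p = 0.761). Rps6kb2 had 47.4 to 68.6 CPM in GFP high, beside 37.2 to 62.3 CPM in GFP low (0.20 ± 0.15, adjusted p = 0.351, and 0.0483 with the block). Of its exon length 24.6% overlaps other genes, among them Coro1b on the opposite strand, which had 34199 reads over all libraries against 7108 for Rps6kb2, and without a stated strand setting the 2 cannot be separated there. Rps6ka1, a kinase of the MAP kinase pathway that also acts on TSC2, had 54.9 to 92.9 CPM in GFP high, beside 57.4 to 82.3 CPM in GFP low (0.07 ± 0.15, adjusted p = 0.744).

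Ddit4 encodes REDD1, an inhibitor of mTOR complex 1 induced by stress. It had 49.3, 79.7, 81.7, 44.1 and 50.5 CPM in GFP high, beside 80.04, 81.4, 97.1, 55.7 and 58.4 CPM in GFP low. It was lower in GFP high in each pair. The difference between libraries numbered 4 or 5 and the others was larger, at -0.58 on the log2 scale. The log2 fold change of -0.29 ± 0.20 did not pass (adjusted p = 0.325) except with the replicate block (-0.30, adjusted p = 0.0192).

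GATOR1 is the complex that inactivates RAG GTPases when amino acids are scarce, and 1 of its 3 genes rose. Nprl3 (ENSMUSG00000020289, chromosome 11, 32225628 to 32267707) had 20.3, 23.6, 23.7, 20.2 and 20 CPM in GFP high, beside 16.8, 15.97, 15.8, 14.7 and 13.5 CPM in GFP low, without overlap. On the log2 scale the difference was 0.49 ± 0.12 (adjusted p = 0.00941). The same size missed the threshold for numbers 1 to 3 (0.50, adjusted p = 0.0504) and for numbers 4 and 5 by themselves (0.50, adjusted p = 0.0877). Of its exon length 17.7% overlaps Mpg on the opposite strand, which had 738 reads over all libraries against 2387 for Nprl3. Depdc5, another GATOR1 subunit, had 36.8 to 46.7 CPM in GFP high, beside 36.5 to 43.7 CPM in GFP low (0.07 ± 0.10, adjusted p = 0.627). Nprl2, the third subunit, had 18.1 to 28.1 CPM in GFP high, beside 19.5 to 24.5 CPM in GFP low (0.10 ± 0.14, adjusted p = 0.647).

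RAG GTPases work as pairs of RagA or RagB with RagC or RagD. Rragd fell (ENSMUSG00000028278, chromosome 4, 32983037 to 33022180), with 60.1, 67.6, 51.4, 72.6 and 66.5 CPM in GFP high, beside 78.9, 68.9, 77.8, 82.7 and 102 CPM in GFP low. Only GFP high library 4 exceeded any GFP low library. The difference on the log2 scale was -0.37 ± 0.12 (adjusted p = 0.0381). It passed in only 3 of the 10 fits with a library left out, where adjusted p reached 0.0952 without GFP high library 1 (-0.33). It also missed without both libraries numbered 3 (-0.32, adjusted p = 0.116), without the low-count filter (-0.35, adjusted p = 0.0607) and for numbers 1 to 3 by themselves (-0.31, adjusted p = 0.103). The fold change stayed between -0.42 and -0.27 in those fits.

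Rragc, the alternative partner, had 139 to 192 CPM in GFP high, beside 127 to 159 CPM in GFP low. It was higher in 5 of 5 pairs, by 0.22 ± 0.10 on the log2 scale (adjusted p = 0.126). The gene passed under the replicate block (0.21, adjusted p = 0.013) and when GFP high library 1 was left out (0.31, with an adjusted p of 0.0309). As a share of the 3 RAG genes per kilobase, Rragd held 11.3% ± 1.32 in GFP high and 14.1% ± 1.63 in GFP low, and these groups did not overlap. Rragc held 47.3% ± 3.80 in GFP high and 39.7% ± 3.94 in GFP low. Rraga had 67.5 to 78.6 CPM in GFP high, beside 73.9 to 95.7 CPM in GFP low (-0.20 ± 0.09, adjusted p = 0.127). Lamtor1, which anchors the Ragulator complex on the lysosome, had 56.1 to 89.9 CPM in GFP high, beside 69.3 to 86.8 CPM in GFP low (-0.12 ± 0.12, adjusted p = 0.474), and 18.7% of its exon length overlaps another gene.

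Other genes of the pathway were read from lists of neighbours, whose counts stand beside 12.0% higher and 15.4% lower among all tested genes, or 20.7% and 21.0% with the block. Of 17 tested PI3K inputs and relatives, 5 rose, and none was lower at an adjusted or an unadjusted p under 0.05 by edgeR, nor by DESeq2. The median log2 fold change of the list was 0.27. The lowest p belonged to Pik3ip1, which encodes a membrane protein that inhibits PI3K (195 ± 11.5 against 125 ± 19.7 CPM, 0.64 ± 0.11, adjusted p = 0.00101), and to the insulin receptor gene Insr (31.5 ± 5.14 against 21.1 ± 1.516 CPM, 0.58 ± 0.13, adjusted p = 0.00515; SD, n = 5 each). With the block 9 rose. Of 14 tested AKT substrates and modulators 2 rose and 12 did not pass, with a median of -0.01. With the block 2 were higher and 3 lower, the latter being Tbc1d4, Tbc1d1 and Ppp2r1a, named after their values were seen. The 2 that rose were Foxo1, the transcription factor that AKT excludes from the nucleus (768 ± 49.3 against 507 ± 49.0 CPM, 0.60 ± 0.08, adjusted p = 0.000209), and Trib3, a pseudokinase that binds AKT (15.2 ± 1.223 against 8.42 ± 1.77 CPM, 0.85 ± 0.18, adjusted p = 0.00348).

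Of 21 tested amino acid sensing genes 17 did not pass, 1 rose and 3 fell (6 and 3 with the block), with a median of -0.02. Seh1l, a GATOR2 subunit that also belongs to the nuclear pore, fell from 173 ± 14.98 to 121 ± 11.2 CPM (-0.52 ± 0.09, adjusted p = 0.00117). Sesn1, a leucine sensor and p53 target that holds back mTOR complex 1, rose from 87.3 ± 14.3 to 122 ± 22.9 CPM (0.48 ± 0.15, adjusted p = 0.0326). Of 15 tested mTOR complex 1 outputs 10 did not pass, 4 fell and 1 rose (5 and 4 with the block), with a median of -0.09. They included the ribosomal protein gene Rps6, whose product is the substrate of S6 kinases (323 ± 8.18 to 235 ± 23.7 CPM, -0.46 ± 0.08, adjusted p = 0.00119), and the cap-binding factor gene Eif4e (219 ± 14.6 to 170 ± 9.27 CPM, -0.36 ± 0.08, adjusted p = 0.00358), and both fell. Among 5 tested genes of mTOR complex 2 and its assembly factors, and 10 of AMPK, LKB1 and the TSC partner, no gene passed by DESeq2 or by edgeR without the replicate block, and with the block 1 gene of each list was lower. At an unadjusted p under 0.05 edgeR had 1 higher and 1 lower in the first list and 0 higher and 1 lower in the second. The lowest p were those of the assembly factors Tti1 (-0.31 ± 0.13, adjusted p = 0.0987, and 0.0208 with the block) and Tti2 (0.30 ± 0.13, adjusted p = 0.1004), and of the TSC subunit Tbc1d7 (-0.62 ± 0.25, adjusted p = 0.088, and 0.0107 with the block) and the AMPK subunit Prkag1 (-0.27 ± 0.13, adjusted p = 0.149).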

How the data were processed

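Polyadenylated RNA was amplified with a SMART-Seq kit for low input, per the labels' protocols. The authors deposited whole-number read counts per Ensembl gene, not normalized; the submitters' processing notes name mm10, STAR, featureCounts and DESeq2 without role, version or setting. Strand and multi-read handling are not given in the sources used here. The 38 members were matched through GENCODE M21 (GRCm38, the build mm10), and 99.678% of 55573 identifiers had a symbol. Libraries were assigned by title. The main test was edgeR 4.0.16 in R 4.3.3 (filterByExpr, TMM, glmQLFit and glmQLFTest, no covariate), with Benjamini-Hochberg adjustment over 12772 genes and a threshold of 0.05; SE is the log2 fold change divided by the square root of F. On simulated counts for these 12772 genes the test recovered 29.9% of genes changed 1.5-fold, 64.2% changed 2-fold and 92.4% changed 4-fold. The simulation held fewer changed genes (131 calls, beside 3511 in the data), which makes the adjusted threshold stricter. Its shares therefore do not give the recovery of the main test, where small differences can still be missed. No change under 1.5-fold was simulated. Same-numbered libraries of the 2 groups deviated together (correlations of 0.321 to 0.45 in all 5 pairs), which is where the pairing comes from, since the labels do not state it. Numbers 4 and 5 also correlated across numbers (0.392 and 0.418), so these values do not set pair 4 apart from pair 5. Unequal numbers among 1 to 3 gave -0.00387 to 0.247. A floor of 3 counts equals 0.203 to 0.291 CPM and covers counting error only. The level per kilobase is CPM divided by the union of annotated exons. Exons of 14 members overlap another gene. Members, lists and tests were chosen with earlier results of these data known. Each called member, and 13 members taken as central (Pik3cd, Pik3r1, Pik3ap1, Inpp5d, Akt1, Akt2, Tsc1, Tsc2, Mtor, Rptor, Rictor, Ddit4 and Deptor), have values per library, others ranges; from each list of neighbours the 2 genes with the lowest p were named. Marker lists covered B-cell progenitors, T, NK, plasma, erythroid and plasmacytoid dendritic cells, neutrophils, monocytes and macrophages. Alternatives were DESeq2 1.42.0, RLE scaling, no low-count filter, a replicate block, libraries left out and subsets of replicates.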

Additional observations from a re-analysis of the deposited data

Results flagged for a closer look

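In 3 of 74 groups of 5 libraries (37 tested members in GFP high and in GFP low), 1 library stood apart from the other four by Dixon's ratio of gap to range. Chance flags about 1 in 20 such groups. Pik3cd had 457.4 CPM in GFP high library 1, below 605 to 654 CPM in the other libraries of that group. Inpp4b had 8.176 CPM in GFP low library 1, above 4.24 to 5.28 CPM in the others. Tsc1 had 22.33 CPM in GFP low library 4, below 27.96 to 30.2 CPM in the others. Without GFP high library 1, which held its lowest value, Pik3cd still passed.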

How the results depend on the processing

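The 11 called members kept their direction under every alternative that was run, and 8 of them passed in each of the 10 fits with a library left out; the others were Pik3r3, Rictor and Rragd. Counts of called members with a library left out were 7 to 9 higher and 2 to 3 lower. Over all genes the same fits had 1189 to 1479 higher and 1617 to 1940 lower, beside 1538 and 1973 in the main fit. Counts of members moved by over 1.5 times with the replicate block (13 higher, 5 lower), without both libraries numbered 3 (5 higher, 0 lower) and in replicates 4 and 5 alone (1 lower). Among members the block changed no call other than the 7 it added. Over all genes the counts were 2645 higher and 2688 lower with the block, and 926 higher and 1367 lower without both libraries numbered 3. In replicates 4 and 5 alone 1432 genes were lower. The activators' median was 0.0019 to 0.14 with a library left out (lowest without GFP low library 3) and -0.0093 without the PI3K regulatory and adaptor subunits, and the brakes' median was 0.18 to 0.26. With coding length Akt1's share was 80.4% in GFP high and 80.8% in GFP low, and Pik3cd's 73.6% and 65.6%, by construction of the scale.

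Signs turned for 8 of 37 tested members, none of them called. With single libraries left out the ranges were -0.023 to 0.15 for Akt1s1, -0.064 to 0.033 for Akt2, -0.14 to 0.051 for Pik3cg, -0.018 to 0.16 for Rps6ka1, -0.15 to 0.054 for Rps6kb1, -0.16 to 0.17 for Rptor and -0.15 to 0.13 for Tsc1. In replicates 1 to 3 alone Akt1s1 had -0.083 and Rps6kb1 0.024. In replicates 4 and 5 alone Akt2 had 0.093, Lamtor1 0.048, Rptor -0.0089 and Tsc1 -0.13. Tsc1 had -0.018 with the replicate block and -0.12 without both libraries numbered 3. The cause was not tested.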

Other observations

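Levels of several members followed the replicate number more than the GFP group. For 6 of 37 tested members all 4 libraries numbered 4 or 5 lay on the same side of all 6 others, beside 10.7% of all tested genes. Pik3cg (149 to 158 against 90.2 to 130 CPM), Akt1 (370 to 392 against 277 to 342 CPM), Rptor (171 to 198 against 93.6 to 119 CPM) and Akt1s1 (25.6 to 32.5 against 21.1 to 25.1 CPM) were higher in those numbered 4 or 5. The S6 kinase genes Rps6kb1 (67.1 to 99.1 against 101 to 120 CPM) and Rps6kb2 (37.2 to 50.2 against 55.7 to 68.6 CPM) were lower there. The labels do not say what the numbers share, and no test was run on this split, which was noticed in the data.

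Markers of other cell types were read beside these results, and their part in them was not tested. Klrb1c, an NK-cell receptor gene, had 274 CPM in GFP high, beside 107 CPM in GFP low. Prf1, the other tested gene of the NK list, had 1.69 CPM in GFP high, beside 0.555 CPM in GFP low. Prf1 did not pass (edgeR adjusted p = 0.0939, and 0.0511 with the block). Ncr1 and Klrk1 had at most 2 reads in any library, and Gzma and Eomes were listed at 0. Summed T-cell markers were 1.31 to 3.38 CPM in GFP high, beside 1.29 to 2.17 CPM in GFP low. Neutrophil markers were 3.58 to 9.87 CPM in GFP high, beside 2.81 to 7.18 CPM in GFP low, and erythroid markers 15.3 to 40.6 CPM and 7.46 to 19.2 CPM. The plasma-cell list had 622 to 1095 CPM in GFP high, beside 509 to 806 CPM in GFP low, and Jchain had 0.629 and 56.7 CPM. Others of that list went the other way: Xbp1 (238.7 against 180.5 CPM) and Sdc1 (39.1 against 20.8 CPM) rose. Prdm1 and Irf4 did not pass without the block but were higher with it. In the plasmacytoid dendritic cell list the sums were 771 to 1037 CPM and 738 to 953 CPM, with Siglech, a defining marker, at 3.70 and 0.154 CPM. Siglech and Tcf4 (338 against 284 CPM) rose, while Bst2 (42.5 against 47.4 CPM) and Ly6d (568 against 550 CPM) did not pass.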
